A study of Rattus norvegicus with 28 samples.

Results

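RNA from NRK-49F cells, an established fibroblast line of rat kidney, was compared between 2 treatments: transforming growth factor β1 (TGF-β) alone, and TGF-β together with an siRNA, a short duplex RNA that directs cleavage of a chosen messenger, aimed at Hoxc8 (siHoxc8). The genes described were chosen by level: all genes with at least 1 FPKM (sequenced fragments, divided by gene length and library depth) in at least 2 of the 4 libraries. They numbered 11603 of the 12315 genes tested and the 30178 genes listed. Of these, 346 reached the level through the siHoxc8 libraries only and 206 through the TGF-β libraries only, so their selection favours a difference. Genes named below that entered through the siHoxc8 libraries only include F13a1, Fmr1nb, Wnt7b, Cyp3a9, Mmp13, Mmp12, Mmp10, Ptgfr, Tfec, Cxcl10 and Wif1. Those that entered through the TGF-β libraries only include Hoxc8 itself, Akap5, Trpc6, Anxa8, Msln, Hrct1, Nkain4, Mir145, Krt7 and Rspo3. At the edge, the second highest of the 4 values was 1.00 FPKM for AABR07019341.1, just inside, and 0.999 for Zfp874b, just outside.

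The series holds 28 samples, of which 8 are RNA-seq libraries in 4 groups of 2. The groups were untreated cells (control), TGF-β alone, TGF-β with restricted methionine (MetR, 30 uM instead of 200 uM), and TGF-β with siHoxc8. Before treatment the cells were starved for 24 h with 0.2% serum, and the printed TGF-β concentration is 5 ng per uL. The titles give 48 h for every group with TGF-β. The label of the TGF-β group names no control siRNA, so transfection and loss of Hoxc8 cannot be told apart in this comparison. Neither the siRNA's sequence nor its dose is given in the sources used here. The labels do not state whether replicate libraries are from different cultures. The p-values therefore reflect the spread of these libraries alone, and that spread may be technical. The cells are of 1 line, and chromatin samples of the series were not analysed here.

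TGF-β drives fibroblasts towards the myofibroblast, a contractile cell that deposits collagen and other matrix and is the main source of scar in kidney fibrosis. Its receptors phosphorylate Smad2 and Smad3, which enter the nucleus with Smad4. Hoxc8 is a homeodomain transcription factor of the Hoxc cluster, known from the patterning of the trunk. The title of the series places it between Smad3 and P-TEFb, the kinase of Cdk9 and cyclin T that releases paused RNA polymerase II.

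Hoxc8 itself stood at 4.32 and 5.01 FPKM with TGF-β alone, 0.463 and 0.0771 with siHoxc8 and 1.12 and 1.34 in control cells. Both siHoxc8 libraries lay below every TGF-β and control library. The change was -2.17 ± 0.19 on the log2 scale (limma, adjusted p = 0.000182). The values rest on few reads, 150 and 176 with TGF-β alone and 15 and 3 with siHoxc8, so the size of the loss is imprecise and the siHoxc8 libraries differ from each other. All changes below are log2 fold changes ± SE of log2(FPKM + 1), which makes changes of weakly expressed genes look smaller.

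The nearest neighbours of Hoxc8 in its cluster fell too. In the RefSeq gene order the genes next to it are Hoxc9 on one side and Hoxc6, Hoxc5 and Hoxc4 on the other. Hoxc6 stood at 12.5 and 12.7 FPKM with TGF-β alone and 3.85 and 3.65 with siHoxc8 (-1.52 ± 0.11, adjusted p = 8.26e-05). Hoxc9 changed by -1.33 ± 0.22 (adjusted p = 0.00261), Hoxc5 by -1.07 ± 0.26 (adjusted p = 0.0131) and Hoxc4 by -0.61 ± 0.13 (adjusted p = 0.00876). The call of Hoxc5 was lost without TGF-β replicate 1 (adjusted p = 0.0616) and without siHoxc8 replicate 1 (adjusted p = 0.085). Hoxc10, beyond Hoxc9, was at 13.7 and 14.6 and 13.5 and 13.9 FPKM (-0.04 ± 0.12, adjusted p = 0.828). Transcripts of this cluster overlap, and whether counting used strand is not given in the sources used here, so reads of one gene cannot be told from those of its neighbour.

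Across all measured Hox genes, 11 of 22 fell and 1 rose, with a median of -0.46. For counts against TGF-β alone, as deposited and over 8 libraries, the background is 3428 of 11603 genes raised (29.5%) and 1894 lowered (16.3%). The median of all genes was 0.14. Counts from other fits have their own background, such as 2551 raised and 2689 lowered after median ratio rescaling. Without the MetR libraries it was 4264 raised and 2371 lowered. Counts with 1 library left out, or against control or MetR, also have their own. The Hox gene that rose was Hoxb8, the paralogue of Hoxc8 in the Hoxb cluster (0.53 ± 0.15, adjusted p = 0.0218). That call was lost in 6 of 20 alternative analyses, among them median ratio rescaling (adjusted p = 0.0681). The other paralogue, Hoxd8, changed by -0.70 ± 0.24 (adjusted p = 0.0463). That call too was lost in 6 of 20 alternatives, and the estimate was -0.43 without siHoxc8 replicate 1. Without that library 7 Hox genes fell. After median ratio rescaling no Hox gene rose and 15 fell. Among 7 cofactors that bind DNA with Hox proteins or restrain them, 4 rose and none fell, and 2 to 4 rose with any 1 library left out. Gmnn, geminin, an inhibitor of DNA replication licensing that also binds Hox proteins, rose by 1.65 ± 0.19.

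Called genes numbered 5322 (45.9%). Of these, 959 rose at least 2-fold (8.27% of all members), 577 fell at least 2-fold (4.97%), and 3786 changed by less than 2-fold. Values of both siHoxc8 libraries lay on one side of both TGF-β libraries for 78.4% of genes, so a gap between groups of 2 is common here. The middle 90% of changes ran from -1.02 to 1.26. The share of rises depended on the scaling: rises were 64.4% of calls as deposited and 48.7% after median ratio rescaling (2551 raised, 2689 lowered), which moved the median of all genes from 0.14 to -0.01. Small changes near the median therefore take their direction from the scaling and the same holds for counts in lists with small changes. Without siHoxc8 replicate 1, 1983 genes rose and 1139 fell, and without siHoxc8 replicate 2, 2093 and 1234.

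**Figure D1:**
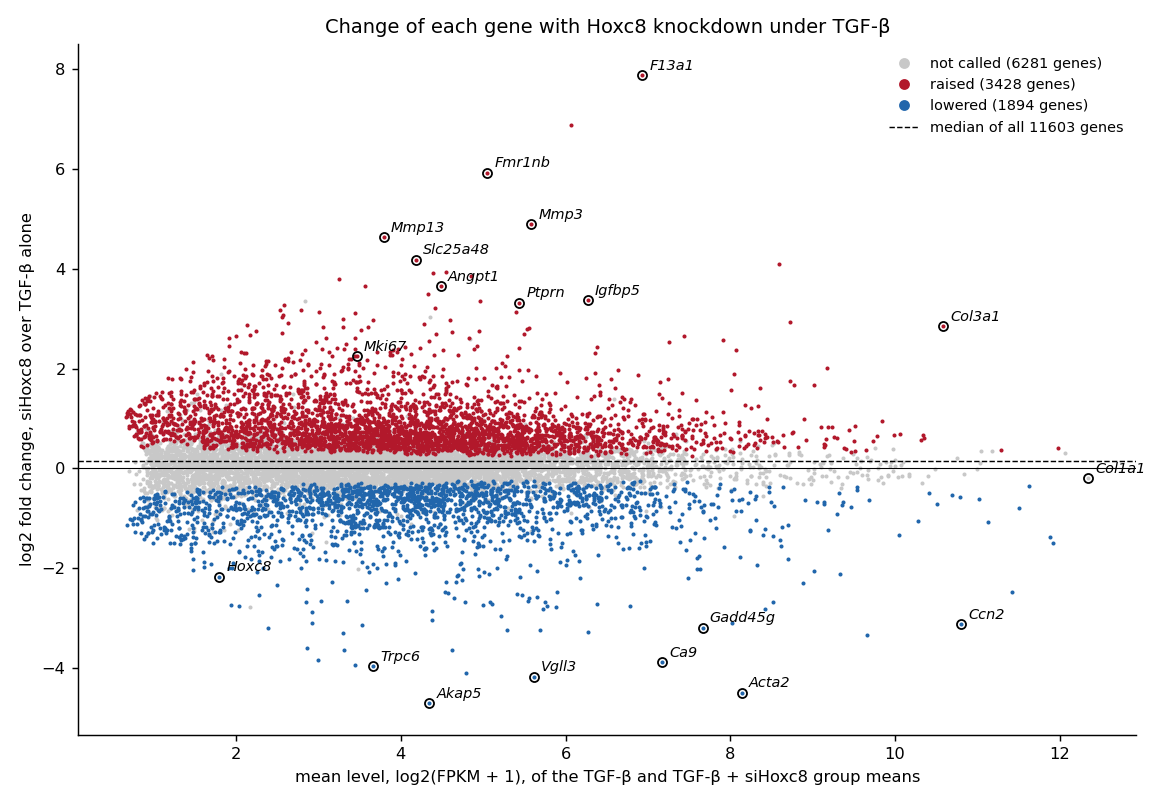
Change of each of the 11603 genes with siHoxc8 (vertical axis, log2 fold change over TGF-β alone) against its mean level (horizontal axis, log2(FPKM + 1)). Red points are the 3428 raised genes, blue the 1894 lowered and grey those not called, and the dashed line marks the median of 0.14. F13a1, Fmr1nb and Mmp3 stand at the top, Akap5 and Acta2 at the bottom, and the unlabelled point below F13a1 is a gene with a placeholder name.

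Most contractile genes of the myofibroblast fell. Acta2, smooth muscle actin and the usual marker of the myofibroblast, stood at 527 and 550.5 FPKM with TGF-β alone, 24.3 and 21.6 with siHoxc8 and 12.5 and 11.3 in control cells. It fell 23.5-fold (-4.50 ± 0.20, adjusted p = 2.38e-05). Both siHoxc8 libraries lay above both control libraries, and all 4 lay far below TGF-β alone. In bulk RNA, fewer contractile cells and less RNA per cell cannot be told apart.

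Other genes of actin filaments followed in the same direction. Of 20 contractile genes, 13 fell and 2 rose, with a median of -0.84. Tagln, transgelin, an actin-binding protein, went from 34.5 and 37.8 to 3.74 and 3.34 FPKM (-3.03 ± 0.26, adjusted p = 0.000154). Tpm2, a tropomyosin, went from 692 and 879 to 164 and 153 (-2.29 ± 0.22, adjusted p = 0.000274), and Cald1, caldesmon, from 665 and 625 to 179 and 188 (-1.81 ± 0.13, adjusted p = 8.75e-05). The members that rose were Myh10, a nonmuscle myosin (0.63 ± 0.16), and Smtn, smoothelin (0.80 ± 0.09). With any 1 library left out, 12 to 13 contractile genes fell.

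Genes of the YAP and serum response factor pathways, whose transcription factors read tension on the actin skeleton, fell in part. Of 26 targets, factors, cofactors and regulators, 15 fell and 1 rose, with a median of -0.68. Ccn2, connective tissue growth factor, stood at 3058 and 3342 FPKM with TGF-β alone, 349 and 388 with siHoxc8 and 947 and 926 in control cells. Its level with siHoxc8 was thus below untreated cells (-1.35 ± 0.11, adjusted p = 0.000111), and its change against TGF-β alone was -3.12 ± 0.11 (adjusted p = 1.43e-05). Its relative Ccn1 went from 612 and 657 to 95.4 and 101 (-2.68 ± 0.18, adjusted p = 6.79e-05).

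Vgll3, a cofactor of TEAD, the DNA-binding partner of YAP, went from 95.2 and 88.0 FPKM to 4.07 and 4.20, also below the 21.6 and 22.2 of control cells (-4.17 ± 0.15, adjusted p = 1.43e-05). Edn1, endothelin, went from 11.8 and 11.0 to 1.19 and 0.713 (-2.68 ± 0.17, adjusted p = 5.26e-05), and Crim1, a transmembrane protein that binds bone morphogenetic proteins, from 61.1 and 47.8 to 7.03 and 7.45 (-2.74 ± 0.12, adjusted p = 2.38e-05). Of the factors themselves, Yap1 was not called (0.21 ± 0.13) while its relative Wwtr1 (-0.61 ± 0.11), Mrtfa (-0.72 ± 0.13) and Srf (-0.37 ± 0.11) fell, and these 3 are among the 15.

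Promoters of Ccn2 and Acta2 are shown because they carry the core TEAD letters GGAATG, in capitals. The sequences are the 250 bases before the start site, 5′ to 3′ in the direction of the gene, from RefSeq (build GRCr8), Ccn2 at chr1:22624615-22624864 on the minus strand and Acta2 at chr1:241172504-241172753 on the minus strand.
Ccn2: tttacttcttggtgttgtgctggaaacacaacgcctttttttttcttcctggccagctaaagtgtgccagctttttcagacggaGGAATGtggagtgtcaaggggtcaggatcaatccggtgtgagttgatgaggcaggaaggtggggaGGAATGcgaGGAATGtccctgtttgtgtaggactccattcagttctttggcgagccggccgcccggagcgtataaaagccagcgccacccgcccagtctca
Acta2: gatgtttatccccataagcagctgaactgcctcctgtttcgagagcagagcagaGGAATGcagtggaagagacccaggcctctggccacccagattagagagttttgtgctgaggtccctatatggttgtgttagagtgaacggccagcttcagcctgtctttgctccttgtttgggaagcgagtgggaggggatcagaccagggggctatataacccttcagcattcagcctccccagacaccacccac
Ccn2 holds 3 matches, starting 166, 101 and 92 bases before the start, and Acta2 holds 1, at 196. On either strand, GGAATG was found in 12.1% of all 33469 promoters, in 9.96% of those of all members, in 18.5% of those of genes lowered at least 2-fold, in 8.26% of those raised at least 2-fold and in 9.63% of those of genes not called. A match is a run of letters and no evidence of binding, and RefSeq promoters were matched by symbol for 8386 of 11603 genes.

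**Figure D2:**
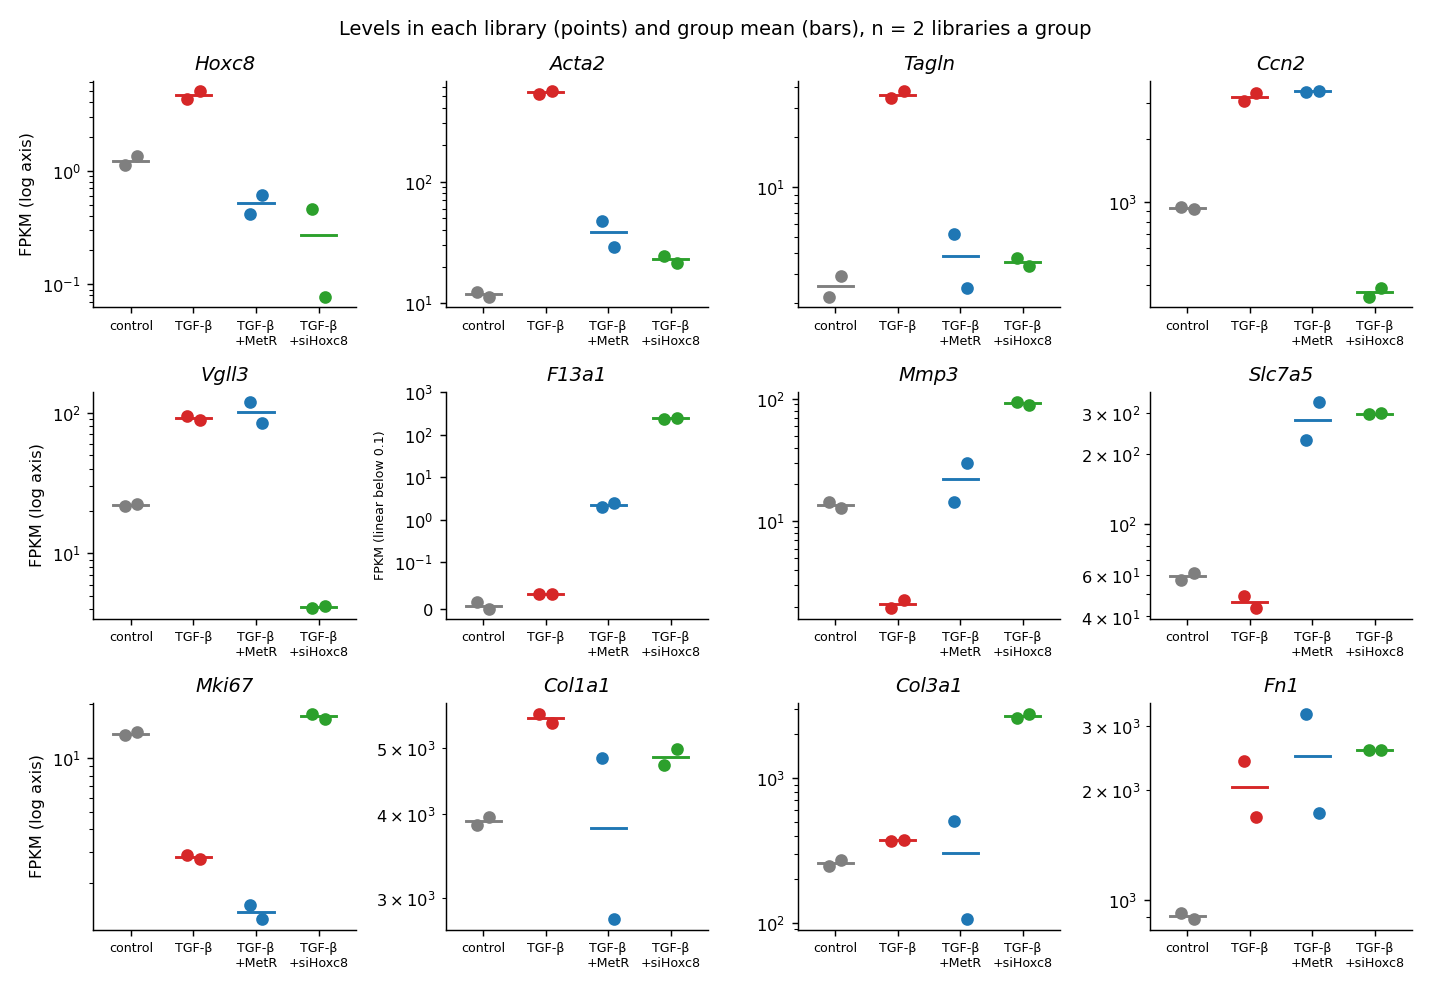
FPKM of 12 genes in each of the 8 libraries (points; log axes, for F13a1 linear below 0.1), with bars at the group means of 2 libraries. Acta2, Tagln, Ccn2 and Vgll3 are low with siHoxc8, F13a1, Mmp3, Slc7a5, Mki67 and Col3a1 are high, and Col1a1 and Fn1 stay near TGF-β alone.

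Genes of the TGF-β pathway changed in part. Among 17 ligands, receptors and Smads, 5 fell and 2 rose, with a median of -0.15. Of all genes, 16.3% fell and 29.5% rose, together 45.9%, so calls were no more common in this list. Of the ligands, Tgfb2 went from 121 and 114 to 23.6 and 26.5 FPKM (-2.19 ± 0.28, adjusted p = 0.000877). Tgfb1, at 68.5 and 75.9 and 79.3 and 80.0, was not called (0.14 ± 0.09, adjusted p = 0.247), and its estimate was -0.026 after median ratio rescaling. Of the receptors, Tgfbr3, betaglycan, which presents the ligand, went from 3.49 and 2.38 to 9.07 and 7.98 (1.29 ± 0.16, adjusted p = 0.000665), and Eng, endoglin, from 56.8 and 52.6 to 30.2 and 28.4 (-0.88 ± 0.11, adjusted p = 0.000745).

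Among the Smads, Smad3, the factor named in the title, stood at 20.3 and 18.2 FPKM with TGF-β alone and 13.9 and 11.9 with siHoxc8. Its change of -0.55 ± 0.11 (adjusted p = 0.00561) lost the call without siHoxc8 replicate 2 (-0.44, adjusted p = 0.0563). Smad1, which carries signals of bone morphogenetic proteins, went the other way, from 15.2 and 14.0 to 32.0 and 33.6 (1.11 ± 0.09, adjusted p = 0.000139). Smad2 (-0.08 ± 0.11), Smad4 (0.01 ± 0.10) and Smad7 (-0.02 ± 0.11) were not called.

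Early targets of TGF-β split in both directions. Of 32, 13 fell and 9 rose, with a median of -0.17. Ccn2, Ccn1 and Edn1 are among these 13 and are also counted in the list of YAP and serum response factor genes. Tgfb2 is in that list as well as among the ligands, so these counts are not independent. Id2, an inhibitor of basic helix-loop-helix factors, went from 37.9 and 46.1 FPKM with TGF-β alone to 5.32 and 7.02 with siHoxc8 (-2.59 ± 0.26, adjusted p = 0.00032).

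Other early targets rose or did not pass the test. Fosl1, a subunit of the transcription factor AP-1, went from 13.2 and 13.1 to 53.1 and 59.1 FPKM (2.01 ± 0.41, adjusted p = 0.00602), and Tgfbi, a secreted matrix protein named for its induction by TGF-β, changed by 2.003 ± 0.29 (adjusted p = 0.00153). The pathway's feedback genes Smad7, Skil, Ski and Pmepa1 changed by -0.02, -0.02, 0.39 and -0.06 in estimate, and of these 4 only Ski was called. With any 1 library left out, the counts of rises and of falls both varied, and the median of the list ran from -0.23 to -0.11. Rises were fewest without siHoxc8 replicate 1. After median ratio rescaling 6 rose and 14 fell.

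Collagen genes moved both ways. Of 14, 3 rose and 2 fell, with a median of 0.19. Both shares lay near or below those of all genes, 29.5% raised and 16.3% lowered, and the median of all genes was 0.14. Col1a1, the main fibrillar collagen, stood at 5627 and 5449 FPKM with TGF-β alone and 4717 and 4992 with siHoxc8, and was not called (-0.19 ± 0.24, adjusted p = 0.548; the estimate was 0.28 after quantile normalization). Col3a1, its fibrillar partner, stood at 367 and 374 with TGF-β alone, 2588 and 2785 with siHoxc8 and 247 and 269 in control cells. It rose 7.25-fold (2.85 ± 0.59, adjusted p = 0.00676), with both siHoxc8 libraries above all 6 others.

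The other called collagens formed pairs. Col6a1 and Col6a2, which assemble into the beaded microfilaments of collagen VI, went from 26.8 and 23.2 to 139 and 141 (2.44 ± 0.27) and from 40.7 and 38.3 to 158 and 157 (1.97 ± 0.24), with adjusted p of 0.000479 and 0.00063. Both control libraries stood higher still, at 161 and 169 for Col6a1. The basement membrane pair fell: Col4a1 went from 339.6 and 293 to 76.7 and 78.0 (-2.01 ± 0.18, adjusted p = 0.00018) and Col4a2 by -1.44 ± 0.19 (adjusted p = 0.000885). Collagen levels of the 2 MetR libraries differed from each other, at 506 and 105 for Col3a1, and they share the estimate of the spread. Without them, 6 collagens rose and 5 fell.

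Genes that modify collagen fell in part. Of 23 genes of hydroxylation, processing and crosslinking, 11 fell and 3 rose, with a median of -0.15, and 11 and 1 after median ratio rescaling. Lox, lysyl oxidase, which crosslinks collagen, went from 846 and 785 to 332 and 362 FPKM (-1.23 ± 0.22, adjusted p = 0.00355). Loxl2 changed by -1.17 ± 0.21 (adjusted p = 0.00376), and the prolyl hydroxylase P4ha2 went from 125 and 135 to 48.3 and 52.8 (-1.35 ± 0.14, adjusted p = 0.000313). P3h4, a partner of collagen hydroxylases, changed by -1.16 ± 0.22 (adjusted p = 0.00443).

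Matrix glycoproteins and proteoglycans moved both ways, with 14 of 34 lowered and 8 raised (median -0.25), and 17 lowered and 11 raised without the MetR libraries. Fn1, fibronectin, stood at 2411 and 1687 FPKM with TGF-β alone and 2585 and 2581 with siHoxc8 and was not called (0.36 ± 0.29, adjusted p = 0.349), in a group whose libraries differ from each other. The thrombospondins went in opposite directions: Thbs1 went from 5064 and 4234 to 799 and 874 (-2.47 ± 0.20, adjusted p = 0.000121) and Thbs2 from 5.17 and 5.75 to 40.8 and 42.6 (2.73 ± 0.54, adjusted p = 0.0055). Nid1, nidogen, a linker of basement membranes, went from 65.6 and 51.7 to 8.02 and 8.05 (-2.71 ± 0.13, adjusted p = 2.46e-05). Ccn5, a relative of Ccn2, went from 41.9 and 51.3 to 6.66 and 6.22 (-2.67 ± 0.39, adjusted p = 0.0015). With any 1 library left out, 9 to 17 of these genes fell and 5 to 11 rose, the fewest rises without siHoxc8 replicate 1.

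**Figure D3:**
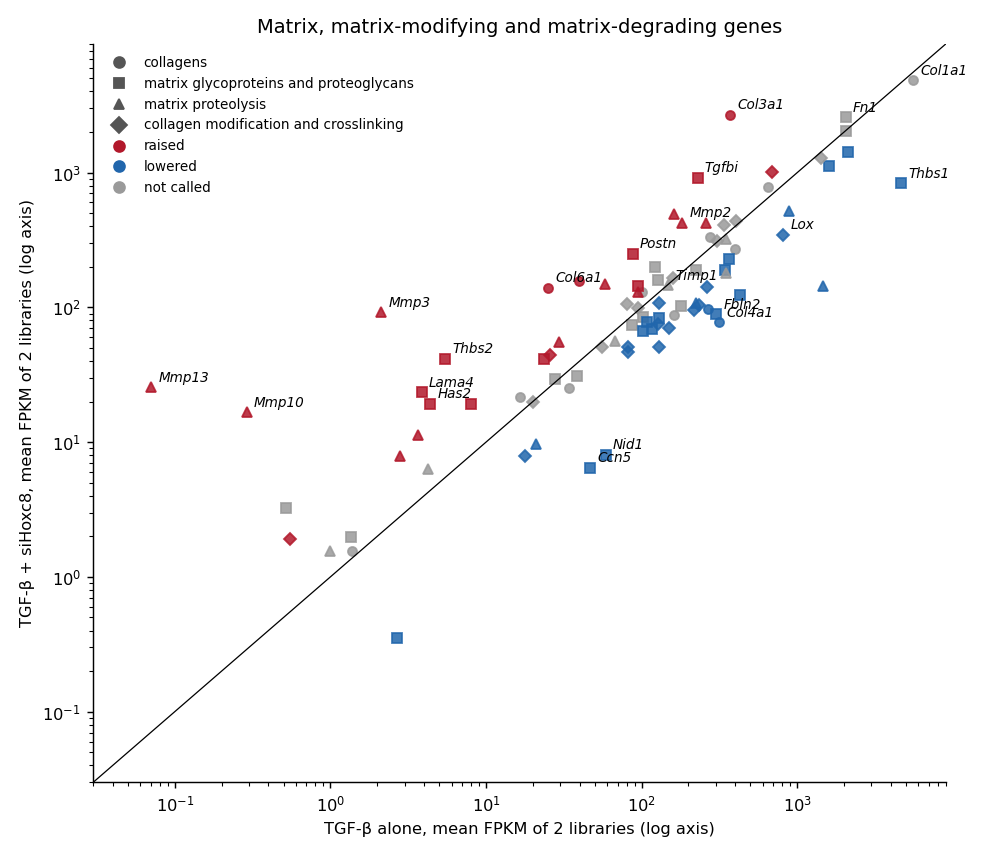
Mean FPKM with siHoxc8 (vertical axis) against TGF-β alone (horizontal axis) for collagens, matrix glycoproteins, collagen-modifying genes and genes of matrix proteolysis, 2 libraries a group, log axes, with the line of equal levels. Red symbols were raised, blue lowered and grey not called. Mmp13, Mmp3 and Mmp10 lie far above the line, Nid1 and Thbs1 below it, and Col1a1 near it.

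Genes of matrix breakdown rose in part. Of 21 proteases and inhibitors, 11 rose and 4 fell, with a median of 0.49, and 7 of the 11 were matrix metalloproteinases. Mmp3, stromelysin, stood at 1.95 and 2.28 FPKM with TGF-β alone, 93.5 and 89.9 with siHoxc8 and 14.4 and 12.8 in control cells (4.90 ± 0.28, adjusted p = 3.7e-05). Both siHoxc8 libraries stood above every other library. Mmp13, an interstitial collagenase, was near absence with TGF-β alone, with 6 reads in both libraries together against 2232 with siHoxc8, a ratio of 364 (95% interval 167 to 994, counting error only).

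Mmp10, another stromelysin, went from 0.471 and 0.107 to 18.2 and 15.3 FPKM (3.79 ± 0.38, adjusted p = 0.000288), and Mmp2, a gelatinase of resting fibroblasts, from 188 and 177 to 418 and 429.9 (1.21 ± 0.11, adjusted p = 0.000172). Those that fell included the metalloproteinase inhibitors Timp3 (-1.03 ± 0.19) and Timp2 (-0.78 ± 0.15) and the plasminogen activator Plat (-1.03 ± 0.14). Timp1 was not called (-0.01 ± 0.12).

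Mmp13, Mmp12, Mmp3 and Mmp10 lie in a row of metalloproteinase genes. Of these, Mmp13, Mmp12 and Mmp10 were under 1 FPKM in both TGF-β libraries and entered through the siHoxc8 libraries, so the filter itself favours a rise for them. Mmp12, macrophage elastase, went from 0.0344 and 0 to 1.14 and 1.41 FPKM (1.16 ± 0.19, adjusted p = 0.00234). Other genes of that row, such as Mmp8 and Mmp7, did not reach the level for inclusion. Of the genes just outside the row, Dcun1d5 on one side rose (0.62 ± 0.17) and Tmem123 on the other fell (-0.48 ± 0.16).

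The promoters of Mmp3, Mmp13 and Mmp10 are shown because each holds the AP-1 letters TGANTCA, in capitals, and AP-1 is the classical activator of these genes. They are the 250 bases before the start, 5′ to 3′, from RefSeq (build GRCr8, plus strand), at chr8:12925031-12925280, chr8:12782579-12782828 and chr8:12974457-12974706.
Mmp3: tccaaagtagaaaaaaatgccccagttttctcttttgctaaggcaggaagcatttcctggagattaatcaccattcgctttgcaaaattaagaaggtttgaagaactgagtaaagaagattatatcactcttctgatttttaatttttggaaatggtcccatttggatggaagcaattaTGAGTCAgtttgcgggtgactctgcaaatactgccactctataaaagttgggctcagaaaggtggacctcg
Mmp13: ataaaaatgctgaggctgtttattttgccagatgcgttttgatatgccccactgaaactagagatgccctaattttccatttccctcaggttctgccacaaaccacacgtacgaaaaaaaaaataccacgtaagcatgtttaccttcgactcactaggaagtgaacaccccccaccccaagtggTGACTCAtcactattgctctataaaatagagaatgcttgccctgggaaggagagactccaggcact
Mmp10: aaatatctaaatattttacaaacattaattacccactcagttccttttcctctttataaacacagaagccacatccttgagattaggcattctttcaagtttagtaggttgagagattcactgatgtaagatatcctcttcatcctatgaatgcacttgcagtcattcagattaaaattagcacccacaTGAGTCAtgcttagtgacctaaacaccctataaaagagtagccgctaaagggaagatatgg
The match starts 71 bases before the start site in Mmp3, 66 in Mmp13 and 61 in Mmp10. On either strand these letters were found in 6.34% of all promoters, 4.41% of those of all members, 3.95% of those of genes not called, 5.37% of those of genes raised at least 2-fold and 5.42% of those lowered at least 2-fold. Among genes of the AP-1 family, Fosl1, Fosb (1.45 ± 0.17) and Junb (1.16 ± 0.29) rose, Fosl2 fell (-1.23 ± 0.20), and Jun was not called (-0.18 ± 0.13).

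Cell cycle genes rose nearly as a whole. Of 43 genes of DNA replication and mitosis, 41 rose and none fell, 38 of them at least 2-fold, with a median of 1.79. The 2 that were not called were Ccne2 and Cdc25c. Top2a, topoisomerase of dividing cells, stood at 6.18 and 7.83 FPKM with TGF-β alone, 47.6 and 47.5 with siHoxc8 and 32.9 and 31.8 in control cells (2.61 ± 0.13, adjusted p = 2.46e-05). The siHoxc8 libraries thus stood above the control libraries as well as above TGF-β alone.

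Mcm5, a subunit of the replicative helicase, went from 3.18 and 4.07 to 33.4 and 33.1 FPKM (2.90 ± 0.16, adjusted p = 3.34e-05). Ccnb1, the cyclin of mitosis, went from 3.65 and 6.07 to 37.8 and 34.5 (2.69 ± 0.19, adjusted p = 8.63e-05), and Ube2c, which loads ubiquitin for the anaphase complex, from 1.62 and 2.34 to 15.5 and 13.9 (2.41 ± 0.15, adjusted p = 5.64e-05). Against control cells 22 of the 43 were higher with siHoxc8 and 3 lower, in a comparison where 22.9% of all genes were higher and 26.4% lower. With any 1 library left out, 39 to 41 rose against TGF-β alone.

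The promoter of Ccnb1 is shown for the letters CCAAT, in capitals, which promoters of mitotic genes are known to carry. It is the stretch of 250 bases before the start at chr2:33655226-33655475 (minus strand, GRCr8, RefSeq), 5′ to 3′.
Ccnb1: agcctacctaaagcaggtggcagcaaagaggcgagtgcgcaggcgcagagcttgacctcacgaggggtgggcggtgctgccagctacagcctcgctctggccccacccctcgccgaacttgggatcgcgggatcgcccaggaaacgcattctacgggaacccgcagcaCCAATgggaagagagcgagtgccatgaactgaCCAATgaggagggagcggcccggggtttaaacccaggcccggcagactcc
Its 2 matches start 82 and 50 bases before the start site. On either strand, CCAAT was found in 25 of 34 promoters of the cell cycle genes (73.5%), against 34.0% of all promoters and 35.8% of those of all members.

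**Figure D4:**
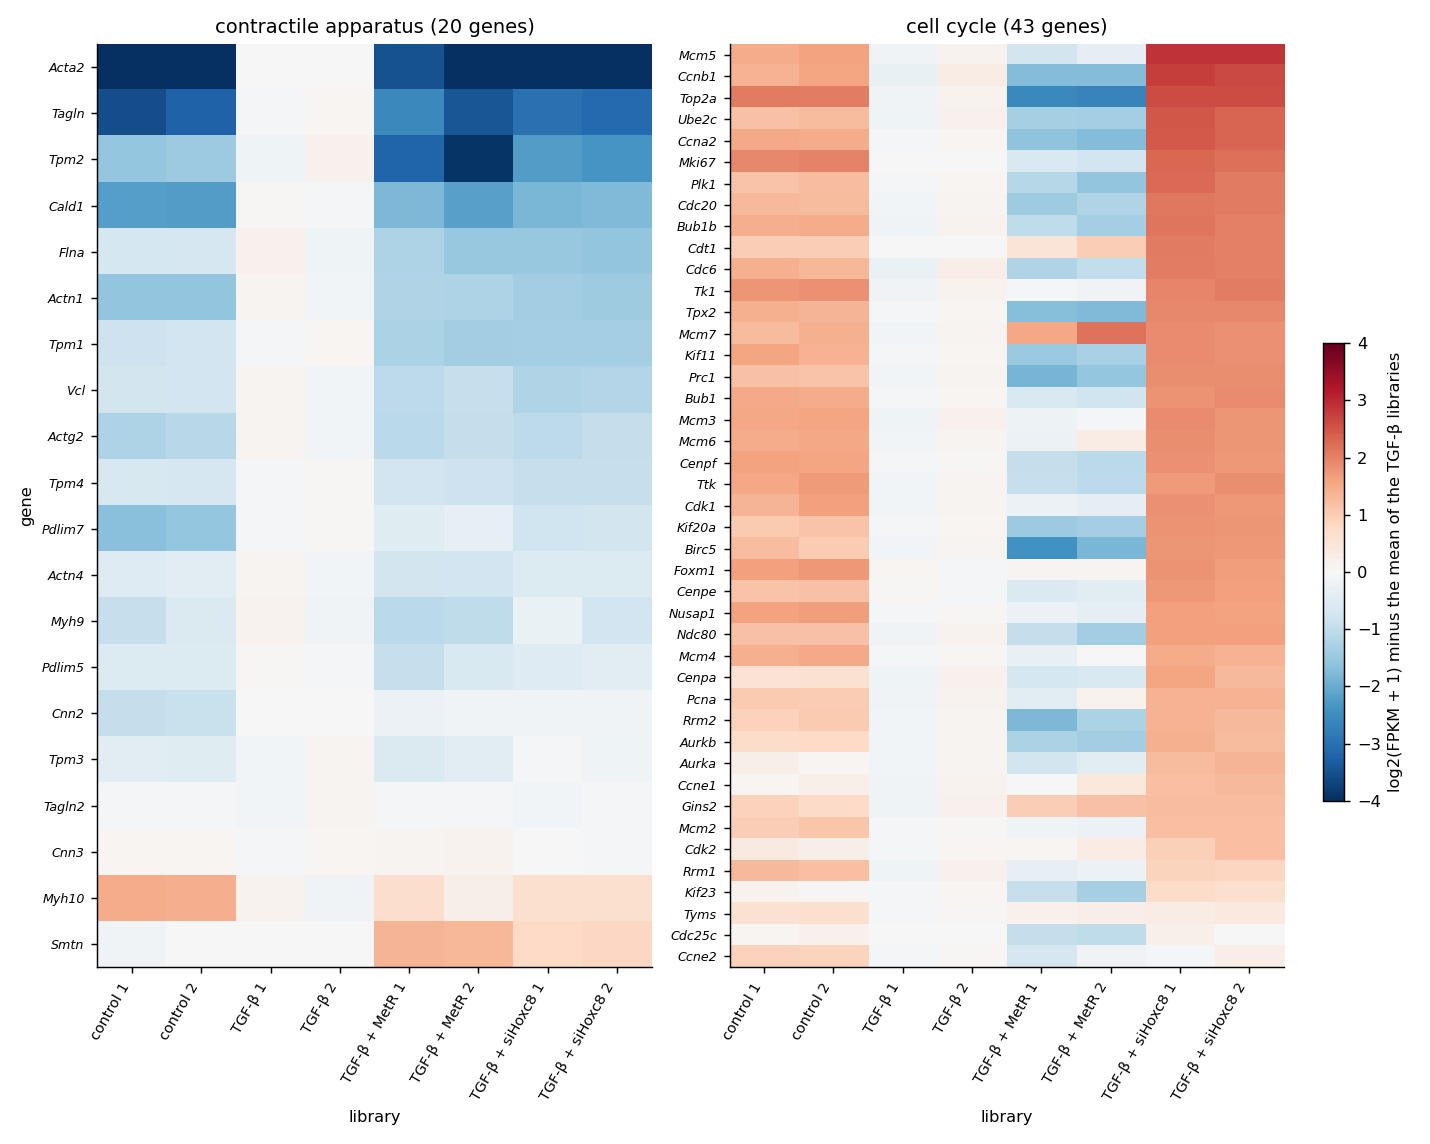
Levels of 20 contractile genes (left) and 43 cell cycle genes (right) in each of the 8 libraries, as log2(FPKM + 1) minus the mean of the 2 TGF-β libraries. Red is higher and blue lower, with colours cut at 4 in either direction, which Acta2 passes. The siHoxc8 columns are blue for most contractile genes and red for cell cycle genes, and the MetR columns are blue or pale for most cell cycle genes.

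Targets of p53, a factor that restrains division, and related growth arrest genes fell in part. Among 24 such genes, 11 fell and 4 rose, with a median of -0.34. Cdkn1a, the p21 inhibitor of cyclin-dependent kinases, stood at 253 and 279 FPKM with TGF-β alone, 82.1 and 87.0 with siHoxc8 and 101 and 98.4 in control cells (-1.64 ± 0.10, adjusted p = 5.05e-05). Gadd45g, a growth arrest gene, went from 322 and 407 to 39.0 and 38.6 (-3.19 ± 0.12, adjusted p = 1.97e-05), and Gadd45b from 98.6 and 109 to 40.5 and 43.1 (-1.29 ± 0.11, adjusted p = 0.000171). Plk2, a kinase of the stress response, went from 30.4 and 26.4 to 9.14 and 8.13 (-1.61 ± 0.13, adjusted p = 0.000127). Some targets of p53, such as Mdm2 (-0.21 ± 0.13), were not called. Without siHoxc8 replicate 1, 7 of the 24 fell.

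The largest rise of all named genes was that of F13a1, the catalytic subunit of coagulation factor XIII, which crosslinks fibrin and matrix. It stood at 0.0321 and 0.0317 FPKM with TGF-β alone, 0.0145 and 0 in control cells and 236 and 246 with siHoxc8. The 4 reads of both TGF-β libraries stood against 30919 reads with siHoxc8, a ratio of 7571 (95% interval 2956 to 27787, counting error only). F13a1 was under 1 FPKM in both TGF-β libraries and entered through the siHoxc8 libraries, so the filter itself favours a rise for it. Fmr1nb, a gene named as a neighbour of Fmr1, had 2 reads against 1930, a ratio of 945 (95% interval 261 to 7809.8, counting error only). Fmr1nb too entered through the siHoxc8 libraries only, so the filter favours a rise for it as well.

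Other large rises were of secreted and membrane proteins. Igfbp5, a binding protein of insulin-like growth factors, went from 11.4 and 14.0 to 141 and 138 FPKM (3.36 ± 0.43, adjusted p = 0.000855). Lamb3, a laminin chain, went from 1.61 and 2.09 to 42.7 and 42.7 (3.95 ± 0.29, adjusted p = 9.04e-05), and Angpt1, the ligand of the Tie2 receptor, from 2.61 and 1.999 to 39.2 and 41.7 (3.65 ± 0.15, adjusted p = 2.11e-05). Ptgfr, the receptor of prostaglandin F, went from 0.719 and 0.772 to 20.6 and 21.3, short of the 27.1 and 25.8 of control cells (3.65 ± 0.20, adjusted p = 3.39e-05). Ptprn, a phosphatase-like protein of secretory granules, went from 7.01 and 6.80 to 78.0 and 77.4 (3.32 ± 0.11, adjusted p = 1.43e-05).

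The rule for large rises also named the carrier Slc25a48 (4.18 ± 0.18), the carbonic anhydrase Ca3 (3.91 ± 0.46), the vesicular glutamate transporter Slc17a6 (3.86 ± 0.36), the syntrophin Sntb1 (3.50 ± 0.19) and the cytochrome Cyp3a9 (3.28 ± 0.17). In all 5, both siHoxc8 libraries lay above both TGF-β libraries, which the rule for naming them required. Of these, Cyp3a9 entered through the siHoxc8 libraries only, so the filter itself favours a rise for it. Slc25a48 was listed at 0 in both control libraries.

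The largest fall of all named genes was that of Akap5, an anchor of protein kinase A, from 43.6 and 32.5 to 0.343 and 0.632 FPKM, with 6.11 and 8.09 in control cells (-4.71 ± 0.24, adjusted p = 2.55e-05). Trpc6, a calcium channel, went from 21.9 and 23.6 to 0.5005 and 0.545 (-3.96 ± 0.20, adjusted p = 2.52e-05). Itga11, an integrin that binds collagen, went from 158 and 121 to 12.7 and 13.8 (-3.29 ± 0.36, adjusted p = 0.000462). Of these 3, each was lower with siHoxc8 than in both control libraries.

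Sulf1, which trims heparan sulfate, went from 72.9 and 66.0 to 5.75 and 7.25 FPKM (-3.24 ± 0.17, adjusted p = 3.08e-05), and Anxa8, an annexin, from 18.6 and 20.4 to 0.377 and 0.285 (-3.94 ± 0.37, adjusted p = 0.000226). Msln, mesothelin, had 602 reads with TGF-β alone against 2 with siHoxc8, a ratio of 307 (95% interval 84.7 to 2544). Ccdc9b (-4.11 ± 0.36), Hrct1 (-3.64 ± 0.25), the exchanger Slc24a3 (-3.64 ± 0.38) and Nkain4 (-3.60 ± 0.15) completed the rule. Anxa8, Msln, Hrct1 and Nkain4 entered through the TGF-β libraries only, so the filter itself favours a fall for them. Mir145, the gene of a microRNA of smooth muscle, was at 9.81 and 18.0 with TGF-β alone and listed at 0 in both siHoxc8 libraries.

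Targets of ATF4, the transcription factor of the amino acid response, rose. Of 34, 26 rose and 2 fell, with a median of 0.67, and 19 rose after median ratio rescaling. Slc7a5, a transporter of large neutral amino acids, stood at 49.0 and 43.4 FPKM with TGF-β alone, 295 and 299.6 with siHoxc8 and 57.5 and 61.6 in control cells (2.66 ± 0.17, adjusted p = 5.64e-05). Aldh1l2, a mitochondrial enzyme of folate metabolism, went from 17.0 and 13.9 to 57.0 and 56.7 (1.82 ± 0.28, adjusted p = 0.00175). Gpt2, an alanine aminotransferase, went from 18.2 and 15.5 to 51.2 and 55.2 (1.61 ± 0.17, adjusted p = 0.000424). Atf5, a relative of ATF4, went the other way, from 310.2 and 308 to 72.9 and 78.5 (-2.01 ± 0.14, adjusted p = 8.26e-05). The list's lowest count with 1 library left out was 16 rises, without siHoxc8 replicate 1.

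Chaperones of the endoplasmic reticulum rose in part, 11 of 26 against 2 that fell (median 0.33, and 8 raised after median ratio rescaling). Hsp90b1, the chaperone of that compartment, went from 176 and 205 to 446 and 459 FPKM (1.25 ± 0.13, adjusted p = 0.000354), Calr, calreticulin, from 579 and 672 to 1231 and 1197 (0.96 ± 0.11, adjusted p = 0.000519) and Creld2 from 23.6 and 26.6 to 72.8 and 73.5 (1.51 ± 0.13, adjusted p = 0.000182).

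Most lysosomal genes fell. Of 32, 21 fell and 5 rose, with a median of -0.65, and 19 to 21 fell with any 1 library left out. Npc2, which carries cholesterol inside lysosomes, went from 539.8 and 662 to 85.5 and 82.7 FPKM (-2.82 ± 0.12, adjusted p = 2.11e-05). Lamp2, a protein of the lysosomal membrane, went from 171 and 184 to 57.6 and 58.7 (-1.59 ± 0.09, adjusted p = 3.57e-05), and the glucosidase Gaa from 151 and 139 to 48.3 and 53.1 (-1.50 ± 0.15, adjusted p = 0.000325). Both siHoxc8 libraries lay below all control libraries for these 3 genes. Of the list's transcription factors, Tfeb (0.45 ± 0.13) and Tfe3 (0.61 ± 0.12), which drive lysosomal genes, rose. Their relative Tfec rose from 0.608 and 0.677 to 12.8 and 14.1 (3.14 ± 0.14, adjusted p = 2.38e-05). Tfec entered through the siHoxc8 libraries only, so the filter favours a rise for it.

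Genes of sterol and fatty acid synthesis were lower in part, with 15 of 36 lowered and 2 raised (median -0.35), and 7 to 22 lowered with any 1 library left out, the fewest without TGF-β replicate 1. Hmgcs1, an early enzyme of cholesterol synthesis, went from 134 and 137 to 67.3 and 69.1 FPKM (-0.98 ± 0.15, adjusted p = 0.0017), and Tm7sf2, a sterol reductase, from 41.9 and 48.2 to 14.4 and 15.2 (-1.54 ± 0.14, adjusted p = 0.000187). Genes of glycolysis and the hypoxic response had 13 of 28 lowered and 6 raised, and 15 and 1 after median ratio rescaling. Without siHoxc8 replicate 1, 7 fell and none rose. Ca9, a carbonic anhydrase induced in hypoxia, went from 265 and 272 to 17.6 and 17.0 (-3.88 ± 0.51, adjusted p = 0.000904).

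**Figure D5:**
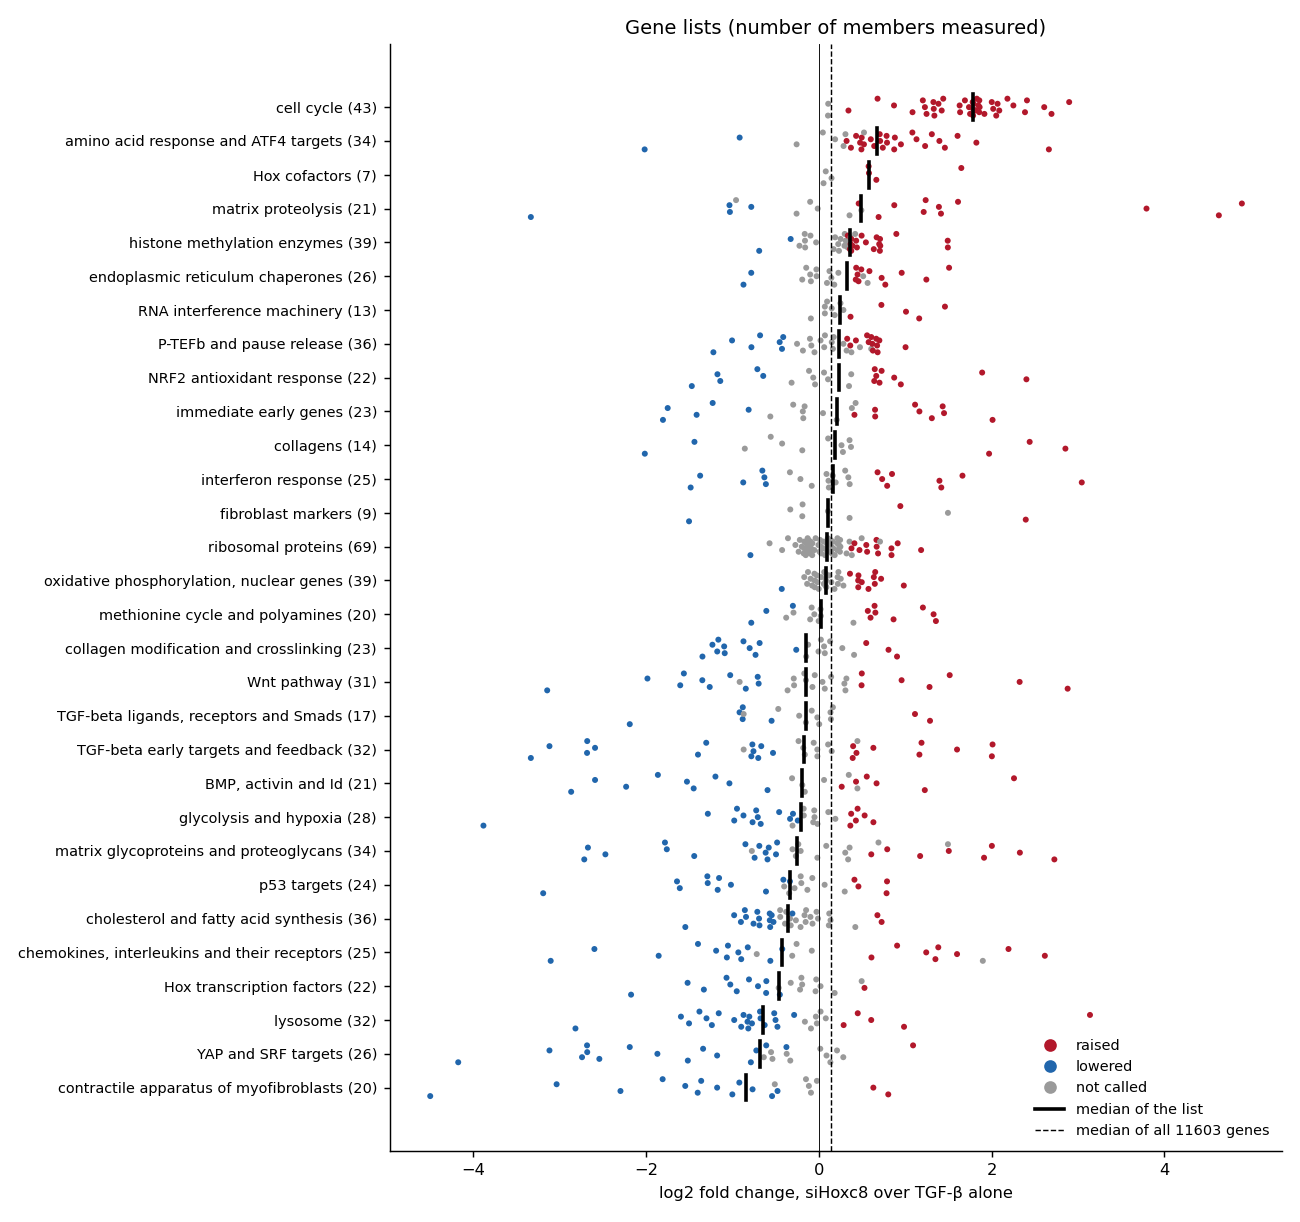
Change of each measured member of 30 gene lists with siHoxc8 over TGF-β alone (points, log2 fold change; red raised, blue lowered, grey not called), ordered by the median of the list (bars). The dashed line is the median of all 11603 genes, 0.14. The cell cycle list, with a median of 1.79, lies farthest to the right and the contractile list, at -0.84, farthest to the left.

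Neither subunit of P-TEFb passed the test. Cdk9, its kinase, stood at 59.9 and 68.2 FPKM with TGF-β alone and 70.8 and 72.7 with siHoxc8 (0.16 ± 0.14, adjusted p = 0.39), and was not called, with an estimate of -0.0034 after median ratio rescaling. Ccnt1, its cyclin, stood at 1.70 and 1.22 and 2.65 and 2.82 (0.61 ± 0.22, adjusted p = 0.0617). Ccnt1 was called without the MetR libraries (adjusted p = 0.0125), as higher with siHoxc8. RNA levels do not measure the activity of the kinase.

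Of 36 genes of P-TEFb, its inhibitors and pause release, 13 rose and 7 fell (median 0.23), against 6 and 9 after median ratio rescaling. As deposited, both shares lay near those of all genes, 29.5% raised and 16.3% lowered. Nelfa, a subunit of the factor that holds polymerase in pause, went from 18.7 and 17.4 to 37.2 and 37.1 (1.004 ± 0.11, adjusted p = 0.000366). Ell2, an elongation factor, went from 22.6 and 21.0 to 8.08 and 9.57 (-1.22 ± 0.14, adjusted p = 0.000581), and Eaf1, a partner of the Ell proteins, from 22.3 and 21.8 to 10.0 and 11.0 (-1.003 ± 0.17, adjusted p = 0.0029). With any 1 library left out, 4 to 18 of the list rose and 3 to 7 fell, the lowest counts without siHoxc8 replicate 1.

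Of 39 histone methylation enzymes, 19 rose and 2 fell (median 0.36), against 8 and 4 after median ratio rescaling. Dot1l, the methyltransferase of histone H3 lysine in the globular domain, went from 10.8 and 7.66 to 26.6 and 28.3 FPKM (1.49 ± 0.15, adjusted p = 0.000299). Ezh2, the catalytic subunit of Polycomb complex PRC2, went from 10.5 and 10.5 to 31.1 and 31.6, above the 20.9 and 20.9 of control cells (1.49 ± 0.14, adjusted p = 0.000223). Suz12, another subunit of that complex, changed by 0.71 ± 0.12 (adjusted p = 0.00272). Without siHoxc8 replicate 1, 5 of the list rose.

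Chemokine and interleukin genes moved both ways, with 12 of 25 lowered and 8 raised (median -0.42). Ccl2, the chemokine that draws monocytes, stood at 424 and 502 FPKM with TGF-β alone, 46.4 and 60.2 with siHoxc8 and 159.9 and 163 in control cells (-3.10 ± 0.14, adjusted p = 2.38e-05). Its neighbour Ccl7 went from 69.9 and 90.0 to 11.0 and 13.7 (-2.60 ± 0.21, adjusted p = 0.000121). Both were lower with siHoxc8 than in either control library. Il6 went from 1.24 and 1.05 to 7.59 and 10.2 (2.20 ± 0.21, adjusted p = 0.000247), and Il33, an alarmin, from 1.41 and 2.79 to 16.1 and 19.1 (2.62 ± 0.23, adjusted p = 0.000164), short of 39.9 and 33.7 in control cells.

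Interferon response genes lay near the background: of 25, 8 rose and 6 fell, with a median of 0.16 against 0.14 for all genes. After median ratio rescaling 7 rose and 6 fell, and 4 fell without siHoxc8 replicate 1. Cxcl10 rose, from 0.272 and 0.269 to 8.97 and 10.0 FPKM (3.04 ± 0.33, adjusted p = 0.000439), as did Bst2 (1.66 ± 0.17) and Irf1 (1.42 ± 0.13). Usp18, a brake on the interferon receptor, went from 19.0 and 23.1 to 6.34 and 7.42 (-1.48 ± 0.18, adjusted p = 0.000695). Of 13 genes of the RNA interference machinery, which small interfering RNAs use, 5 rose and none fell, with 4 raised after median ratio rescaling and 3 without TGF-β replicate 2. Ago2, the protein that cuts the target RNA, went from 15.5 and 10.2 to 29.9 and 28.9 (1.16 ± 0.19, adjusted p = 0.00255), and Adarb1, an RNA-editing enzyme, from 3.14 and 2.38 to 9.39 and 9.20 (1.46 ± 0.15, adjusted p = 0.000319). Whether these values stem from the transfection was not tested.

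Markers were read to check the label of the cells. Of 15 fibroblast markers, 14 were listed (Col1a2 was not), and 8 were at or above 1 FPKM in both TGF-β libraries. These were Vim, Col1a1, Fn1, S100a4, Ddr2, Pdgfra, Pdgfrb and Nt5e. With TGF-β alone, Lum (0.367 and 0.666) and Dcn (0.0993 and 0.0655) were under 1 FPKM. Fap stood at 0 and 0.0531 there, and Tcf21 and Cd34 were listed at 0. Thy1 was listed at 0 in all libraries. Vim, vimentin, went from 5256 and 6204 to 1992 and 2042 (-1.50 ± 0.13, adjusted p = 0.00016). Control cells stood at 2133 and 2082. Pdgfra, a growth factor receptor of resting fibroblasts, went from 8.24 and 8.60 to 49.4 and 47.8 (2.40 ± 0.17, adjusted p = 7.96e-05).

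The summed level of 16 epithelial markers was 198 to 229.7 FPKM with TGF-β alone and 648 to 688 with siHoxc8, almost all of it Krt8, a keratin (194 and 225 against 685 and 646; 1.67 ± 0.11). Epcam and Esrp1 were listed at 0 in all 8 libraries, Cdh1 did not pass 0.105, and Krt7 fell (-1.11 ± 0.14). The sums of endothelial markers were 78.4 to 79.8 and 46.1 to 49.9, mostly Eng and Egfl7, with Kdr and Tie1 listed at 0. The leukocyte sums were 49.5 to 60.8 and 56.3 to 58.8, mostly Cd14 (41.4 and 52.4 against 55.3 and 53.5), with Ptprc listed at 0 in all 4 libraries. Cd14 was not called. Cd74 fell, from 5.45 and 6.01 to 1.95 and 1.70 FPKM, as did Cd68, whose call was lost in 7 alternatives.

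The comparison with TGF-β and MetR shows where siHoxc8 stood apart from the other treatment under TGF-β. Between these groups 3054 genes were higher with siHoxc8 (26.3%) and 3357 lower (28.9%), together 6411 (55.3%). Hoxc8 itself, at 0.417 and 0.614 FPKM with MetR, was not called different (-0.27 ± 0.19, adjusted p = 0.27). Among the contractile genes 2 were higher and 3 lower, with a median of -0.04, and Tagln did not pass the test (-0.03 ± 0.26, adjusted p = 0.924). Acta2 stood at 47.3 and 29.2 with MetR, and its level with siHoxc8 was lower (-0.67 ± 0.20, adjusted p = 0.0238). Cell cycle genes differed: 39 of 43 were higher with siHoxc8 than with MetR, and none lower, with a median of 2.20. Top2a stood at 0.346 and 0.256 FPKM with MetR (5.22 ± 0.13, adjusted p = 1.67e-06).

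Genes of the YAP and serum response factor pathways differed too, with 15 of 26 lower with siHoxc8 and 1 higher. Vgll3 and Ccn2 were at 118 and 84.97 and 3391 and 3400.1 FPKM with MetR, so that siHoxc8 was lower by far (-4.30 ± 0.15 and -3.20 ± 0.11, adjusted p = 5.82e-06 and 5.82e-06). Of the p53 targets and related growth arrest genes, 19 of 24 were lower with siHoxc8. Among them was Gadd45g, at 2099.9 and 2142 with MetR (-5.74 ± 0.12, adjusted p = 1.13e-06). Slc7a5 did not pass the test of the difference (0.11 ± 0.17, adjusted p = 0.598). Cdk9, at 153 and 206 with MetR, was lower with siHoxc8 (-1.30 ± 0.14, adjusted p = 0.000288).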

How the data were processed

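RNA-seq of 8 NRK-49F libraries was read from 1 deposited table of FPKM values, which the authors computed for each gene and library. Trim Galore, Bowtie2 2.3.5.1, deepTools, featureCounts and the build rn6 are named in the submitters' processing notes, without roles. Not given in the sources used here were the annotation and whether counting used strand. Values came out as whole reads (within 0.02) for 100% of 19435 genes above 0, which gave 15118113 to 20146870 reads per library.

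Log2(FPKM + 1) was fitted with limma 3.58.1 (R 4.3.3), 1 coefficient per group over all 8 libraries, with a trend in the prior, for 12315 genes at 1 FPKM or more in at least 2 libraries. Benjamini-Hochberg adjusted p under 0.05 was called raised or lowered. SD of a group rests on n = 2. Intervals of read ratios are exact at 95%. On simulated data with 12315 genes, 50, 100 and 50 well-expressed genes were changed 1.5-fold, 2-fold and 4-fold. Of these, 32%, 80% and 96% were recovered, and 3.36% of calls were false. In the data far more genes were called. Replicate spread also differed between groups (SD 0.177 in control, 0.307 with MetR), whereas the simulation gave each gene 1 spread. The simulated shares therefore do not carry over to the data. Python 3.11.15, pandas 2.3.3, scipy 1.17.1 and matplotlib 3.10.9 were used.

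Genes named were a fixed set, the 15 largest rises and falls whose higher group averaged 5 FPKM or more, and up to 4 called genes per list. Names beyond that rule were chosen after their values were seen, and 1 gene the rule names is not reported here. Members and lists were chosen with earlier results of these data known. Alternatives were the pseudocount, filters, scalings, libraries fitted, a replicate block, library weights, limma-voom on the recovered reads and each library left out. The labels' replicate numbers did not pair the TGF-β and siHoxc8 libraries (correlation of deviations -0.02). Between TGF-β and MetR that correlation was 0.20.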

Additional observations from a re-analysis of the deposited data

How the results depend on the processing

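Of 149 named genes that were called, 132 kept direction and call in each of 20 alternatives and 17 lost the call in some. Calls with at least 2-fold change were 392 raised and 282 lowered with a pseudocount of 5, 629 raised among genes with a mean of at least 5 FPKM, and 963 lowered with limma-voom on recovered reads. With 1 library left out in turn, 1983 to 4263 genes rose and 1139 to 2366 fell. The fewest were without siHoxc8 replicate 1, and 2093 and 1234 without siHoxc8 replicate 2, where fewer libraries were fitted. Estimates changed sign for Tgfb1 (-0.026 after median ratio rescaling, -0.023 with limma-voom), Cdk9 (-0.0034 after median ratio rescaling) and Col1a1 (0.28 after quantile normalization), none of them called, and the cause was not tested. With a replicate block 3449 genes rose and 1902 fell, although the numbers did not pair the TGF-β and siHoxc8 libraries. Depth limits genes of few reads, such as Hoxc8 with siHoxc8.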

Other observations

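Genes of other signalling pathways moved in both directions. Of 31 genes of the Wnt pathway, 10 fell and 7 rose (median -0.15), and 12 and 5 after median ratio rescaling. Wnt7b, a Wnt ligand, had 6 reads with TGF-β alone against 871 with siHoxc8, a ratio of 142 (95% interval 65.1 to 388, counting error only). Wnt7b and Wif1 entered through the siHoxc8 libraries only, so the filter itself favours a rise for them. Wif1, which binds and blocks Wnt ligands, went from 0.330 and 0.435 to 6.10 and 5.74 FPKM (2.32 ± 0.14, adjusted p = 5.12e-05, limma), and Rspo3, an amplifier of Wnt signals, from 3.39 and 4.36 to 0.279 and 0.179 (-1.98 ± 0.24, adjusted p = 0.000612). Of 21 genes of bone morphogenetic proteins, activins and Id factors, 9 fell and 6 rose, and 9 and 3 after median ratio rescaling. Bmp6 went from 40.9 and 30.2 to 3.61 and 4.34 (-2.86 ± 0.28, adjusted p = 0.000258) and Bmp2 from 11.3 and 13.8 to 64.1 and 63.1 (2.26 ± 0.20, adjusted p = 0.000169). Fst, follistatin, which binds activin, went from 42.3 and 43.6 to 8.32 and 8.44 (-2.23 ± 0.18, adjusted p = 0.000137).

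Of 22 antioxidant genes driven by NRF2, 9 rose and 5 fell (8 and 6 after median ratio rescaling). Hmox1, heme oxygenase, went from 13.6 and 11.9 to 72.4 and 70.7 FPKM (2.40 ± 0.11, adjusted p = 2.46e-05). Of 20 genes of the methionine cycle and polyamines, 8 rose and 3 fell, and 7 and 5 after median ratio rescaling. Mri1, of the methionine salvage pathway, went from 7.58 and 8.22 to 20.4 and 22.3 (1.33 ± 0.11, adjusted p = 0.000128), and Sms, spermine synthase, from 16.5 and 22.2 to 51.4 and 49.6 (1.36 ± 0.22, adjusted p = 0.00252). Of 23 immediate early genes 9 rose and 5 fell (7 and 6 after median ratio rescaling), and 2 rose without TGF-β replicate 1. Ribosomal protein genes lay close to all genes against TGF-β alone, with 12 of 69 raised, 1 lowered and a median of 0.09 (7 and 7 after median ratio rescaling), while 67 of the 69 were higher with siHoxc8 than with MetR (median 1.42). Of 39 nuclear genes of oxidative phosphorylation, 11 rose and 1 fell (8 and 1 after median ratio rescaling), and 3 rose without siHoxc8 replicate 1.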
